A study of Mus musculus with 9 samples.

Results

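DNA replication and S phase genes were followed in mouse skin across 3 groups of 3 RNA-seq libraries. The group consisted of 41 genes chosen by name for their role in copying DNA, and each of them had 1 row in the deposited table of 55382 genes. All libraries came from skin of female C57BL/6 mice, whose age is not given in the sources used here. The NORMAL group had received PBS. The BLM group had received subcutaneous bleomycin, a DNA-damaging drug that brings on a scleroderma-like fibrosis of the skin, at 1 mg/mL in 100 µL for 28 days, and then PBS for 7 days. The EXO group had received the same bleomycin and then 15 µg of extracellular vesicles (labelled exosomes) from mouse bone marrow mesenchymal stem cells in 100 µL for 7 days. Bleomycin was thus shared by BLM and EXO, and whether each library came from a separate mouse is not stated, so p-values measure the spread between these libraries only. The comparisons address how the level of these genes differed after bleomycin, and after the vesicles that followed it.

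Before a cell copies its DNA, the origin recognition complex, Cdc6 and Cdt1 load the ring-shaped Mcm helicase onto origins, which licenses them. At the start of S phase, Cdc45 and the GINS complex join the ring and the DNA is unwound, primase and the DNA polymerases copy it behind the Pcna sliding clamp, and the flaps between Okazaki fragments are trimmed and sealed. Most of these genes are transcribed in cells that cycle and are targets of the E2F transcription factors, so their level in a tissue follows how many of its cells are cycling. In skin such cells are found mainly in the basal epidermis and, while a hair is growing, in the matrix at the base of the follicle.

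Values were FPKM, fragments scaled by transcript length and by library total, which can be compared between genes because length is taken into account. The libraries are named by group and number, from NORMAL1 to EXO3. Skin markers were present in every library (basal keratinocyte markers summed to 1003 to 10853 FPKM), and 11238 to 13461 genes reached 1 FPKM. The libraries differed in make-up in ways that bear on every value below. Mitochondrially encoded genes took 19.1 to 22.7% of the summed FPKM in NORMAL, 27.8 to 50.9% in BLM and 18.7 to 34.4% in EXO, with the highest share of their group in BLM2 and EXO2. Skeletal muscle markers summed to 7480 to 51595 FPKM in NORMAL, 5239 to 9105 FPKM in BLM and 7135 to 35572 FPKM in EXO. In bulk skin, fewer cells of a type and less RNA per cell cannot be told apart.

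As a group, the replication genes were at their highest in BLM1 and BLM3. Their summed level was 129.6 FPKM in NORMAL1, 88.4 FPKM in NORMAL2 and 182 FPKM in NORMAL3. In BLM it was 371, 144 and 453 FPKM, and in EXO it was 146, 161 and 285 FPKM, in the same order of number. BLM2 was below NORMAL3, so the groups overlapped in the sum, and EXO3 was above all NORMAL libraries. BLM3 held the highest value of 26 of the 41 genes, BLM1 of 11 and EXO3 of 4, while NORMAL2 held the lowest value of 27. Of the 41 genes, 24 reached 1 FPKM in every library and 37 passed the filter of 1 FPKM in at least 3 libraries. Each of the 37 reached 1 FPKM in at least 1 library outside BLM, and 6 of them were below 1 FPKM in every NORMAL library. Pole, Chtf18, Chaf1a, Clspn and Ccne1 would not have passed without the BLM libraries, so their BLM values helped to select them. Mcm10, Cdc6, Orc1 and Pola1 did not pass and were not tested. By mean FPKM, Pcna was the most abundant member and Orc1 the least.

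**Figure D1:**
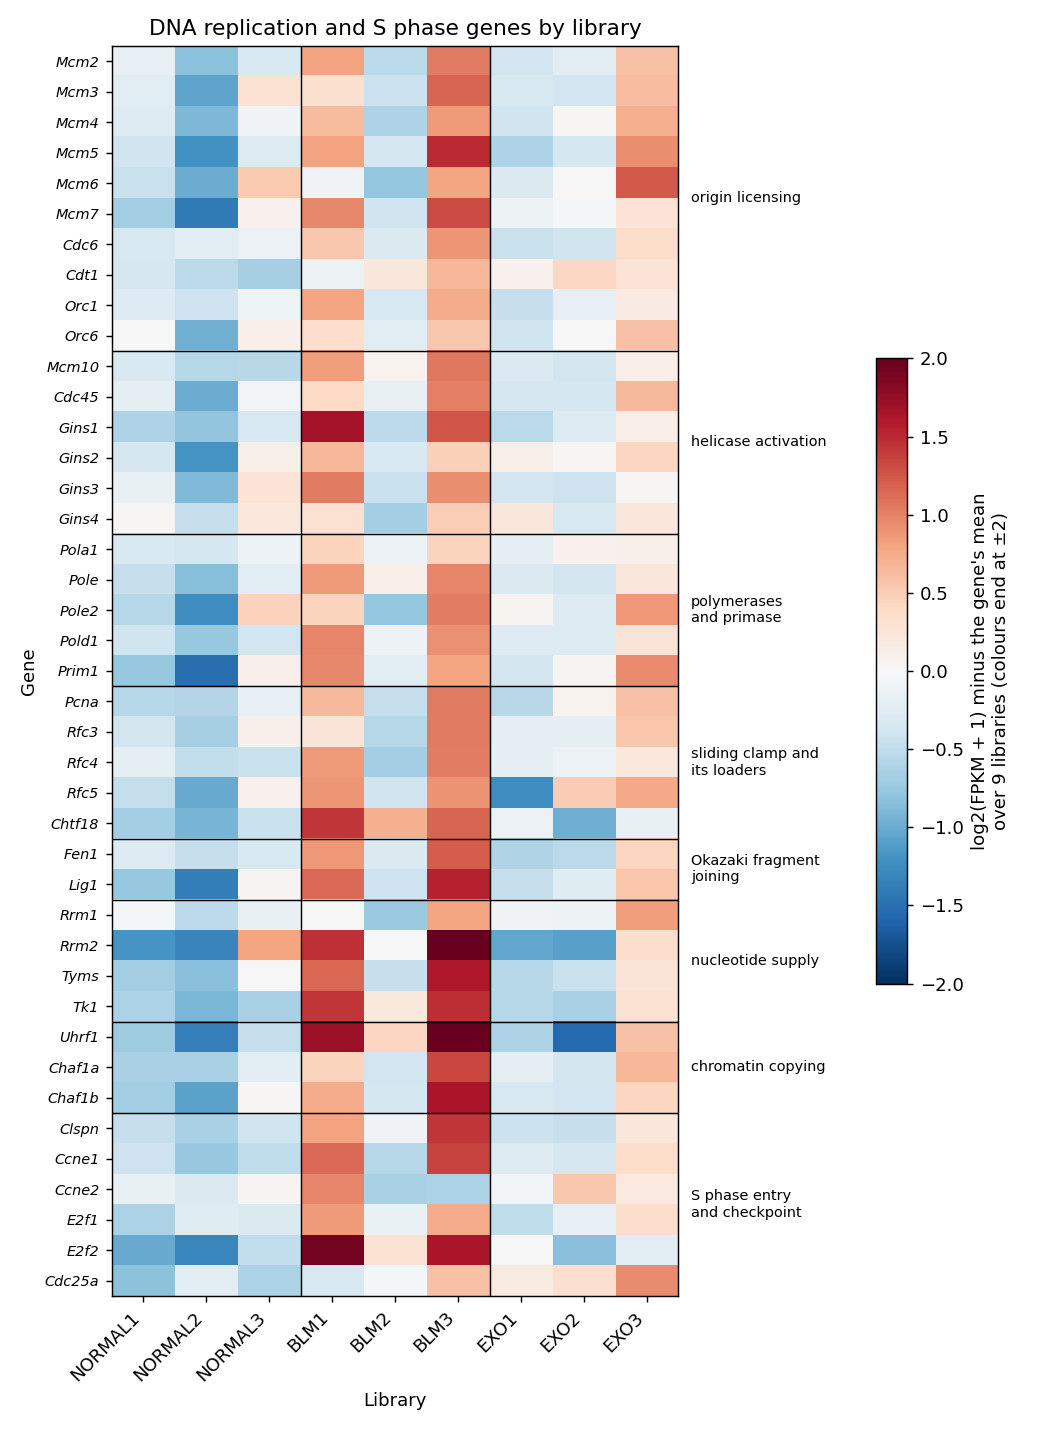
Level of each of the 41 genes (rows, grouped by role) in each of the 9 libraries (columns), as log2(FPKM + 1) minus the mean of that gene over the 9 libraries, with red above and blue below that mean. BLM1 and BLM3 are red in most rows, NORMAL2 is blue in most rows, and BLM2 lies nearer to the NORMAL and EXO libraries than BLM1 and BLM3 do.

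Words bound by E2F factors lay near the starts of 17 of these genes. Windows of 300 bases (250 before and 50 after each start, from RefSeq, build GRCm38.p6) were found for 35 of the 41 members. The words searched on both strands were TTTCCCGC, TTTGGCGC, TTTCGCGC and TTTGCCGC, which can overlap each other and can share a C with a CCAAT box. At least 1 of them lay in the windows of 17 of the 35 members (48.6%), against 704 of all 27025 genes with a window (2.61%), or 3.71% of the windows within the middle range of the members' GC content. CCAAT lay in the windows of 22 of the 35 members (62.9%) against 41.1% of all genes, and TTTGAA, the word of cell cycle homology regions, in 5 (14.3%) against 20.2%. The stretches below come from some of the genes named with full values, with E2F words in capitals. Words of Mcm3 and of other members, and the word of Mcm7 after its start, are not shown.
Mcm5 (chr8:75109331-75109392, plus strand): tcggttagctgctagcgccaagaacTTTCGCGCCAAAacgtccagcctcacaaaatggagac
Mcm6 (chr1:128359720-128359840, minus strand): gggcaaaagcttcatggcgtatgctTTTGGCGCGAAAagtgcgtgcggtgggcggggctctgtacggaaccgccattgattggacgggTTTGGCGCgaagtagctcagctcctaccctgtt
Mcm7 (chr5:138172016-138172073, minus strand): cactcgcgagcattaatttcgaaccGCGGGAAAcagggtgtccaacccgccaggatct
Orc1 (chr4:108579402-108579453, plus strand): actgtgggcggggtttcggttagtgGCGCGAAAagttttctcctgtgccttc
Gins3 (chr8:95633493-95633550, plus strand): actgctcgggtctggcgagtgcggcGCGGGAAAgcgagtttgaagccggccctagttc
Uhrf1 (chr17:56304103-56304160, plus strand): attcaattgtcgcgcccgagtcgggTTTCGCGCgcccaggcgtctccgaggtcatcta
E2f2 (chr4:136172294-136172323, plus strand): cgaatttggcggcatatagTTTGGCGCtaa
Clspn (chr4:126556990-126557019, plus strand): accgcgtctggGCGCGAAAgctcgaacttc
Lig1 (chr7:13278841-13278870, plus strand): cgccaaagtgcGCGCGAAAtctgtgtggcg
Pold1 (chr7:44548766-44548795, minus strand): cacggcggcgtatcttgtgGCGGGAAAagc
Chtf18, among the members with the largest differences, held none of the E2F words in its window but 4 CCAAT boxes, shown here in capitals on either strand.
Chtf18 (chr17:25727416-25727582, minus strand): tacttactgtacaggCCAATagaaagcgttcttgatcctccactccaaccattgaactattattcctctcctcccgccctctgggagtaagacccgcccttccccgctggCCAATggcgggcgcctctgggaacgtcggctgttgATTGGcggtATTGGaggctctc
No E2F word lay in the windows of Tk1, Rrm2, Pcna or Ccne1 either. A match is a description of the letters only, and no match says nothing about the factor. Between BLM and NORMAL the median log2 change was 0.76 for the 17 members with a word and 0.96 for the 18 without. Between EXO and BLM it was -0.56 and -0.52.

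After bleomycin all 41 members had a higher mean log2(FPKM + 1) than in NORMAL (39 to 41 under the other scalings), with a median difference of 0.88 on the log2 scale, where the median of all 14254 genes tested was -0.03. Of all genes tested, 47.3% were higher. No single member passed the test with 9 libraries in 1 limma model, and 3 did once the library number was a block. On this scale the change of genes near or below 1 FPKM is understated. By number, BLM1 was above NORMAL1 in 41 of 41 members, BLM2 above NORMAL2 in 36 and BLM3 above NORMAL3 in 40, with median ratios of 3.38, 1.88 and 3.03 in FPKM. In limma, 0 of the 37 tested members reached an adjusted p below 0.05, where 2 of all genes did (0.014%). At an unadjusted p below 0.05, 17 members were higher and none lower, against 3.28% of all genes that were higher. With the library number as a block, 3 members were called, against 0.407% of all genes called higher, and 26 members reached an unadjusted p below 0.05, all higher, against 6.29% of all genes. The called members were E2f2, Chtf18 and Uhrf1. Every BLM library was above every NORMAL library in 9 of the 37 tested members, against 2.87% of the genes tested. Over all 41 members the count was 11, with Mcm10 and Pola1, which were not tested. The opposite was seen in 0 members. Among the 9, Chtf18, Pole and Clspn would not have passed the filter without the BLM libraries.

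**Figure D2:**
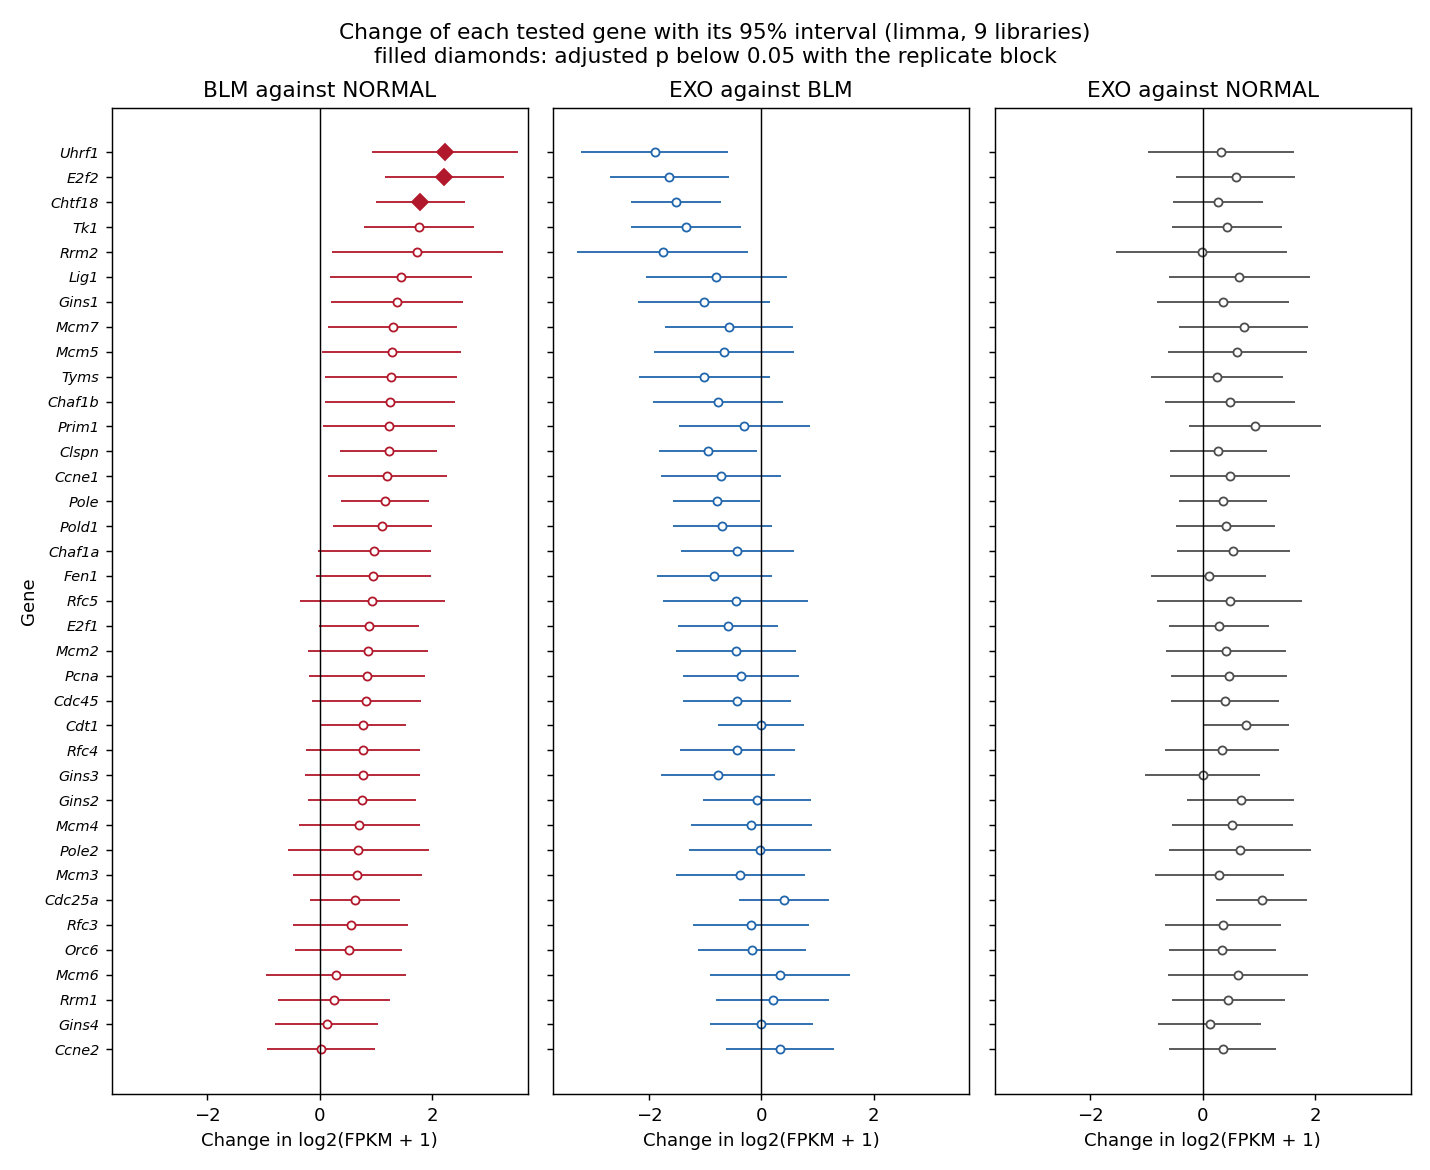
Change in log2(FPKM + 1) of the 37 tested genes in 3 comparisons (points), with the 95% interval from limma over 9 libraries (lines), in the order of the change between BLM and NORMAL. Filled diamonds are the 3 genes with an adjusted p below 0.05 when the library number was a block, all of them in BLM against NORMAL, where the points run from 0.026 (Ccne2) to 2.23 (Uhrf1).

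In the EXO libraries 36 of the 41 members were lower than in BLM, and 30 to 39 under the other scalings (median log2 change -0.53, where that of all genes was 0.22). Of all genes tested, 68.8% were higher in EXO than in BLM. This comparison shares the BLM libraries with the one before, so the 2 sets of values are not independent of each other. In the values as deposited, this direction was seen in most members in the libraries numbered 1 and 3 but not in those numbered 2. EXO1 was below BLM1 in 39 members and EXO3 below BLM3 in 35, whereas EXO2 was below BLM2 in 15 and above it in 26. That exception turned with the scaling. EXO2 was below BLM2 in 36 members with median-ratio scaling, and in 36 when mitochondrial genes and their nuclear copies were left out. With each library set to the same total it was below in 9. None of the 37 tested members had an adjusted p below 0.05 in limma, against 0.014% of all genes, nor with the block, against 0.0772%. The smallest adjusted p of a member was 0.296, and 0.0659 in the blocked fit. At an unadjusted p below 0.05, 7 members were lower and none higher, against 2.52% of all genes that were lower, and in the blocked fit 14 were lower and none higher, against 4.17%. Every BLM library was above every EXO library in 2 members, Chtf18 and E2f2, against 2.66% of the genes tested. Of these 2, Chtf18 would not have passed the filter without the BLM libraries. With median-ratio scaling the count was 17 of the 37 tested members against 9.79% of the genes, and without mitochondrial genes 12 against 9.86%.

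Against NORMAL, 39 of the 41 members were higher in EXO (36 to 41 under the other scalings), with a median log2 change of 0.40, where that of all genes was 0.17. Of all genes tested, 67% were also higher. In limma 0 of the 37 tested members had an adjusted p below 0.05 (0% of all genes), and in the blocked fit none did (0.021%). At an unadjusted p below 0.05 there were 2 members, both higher, against 1.83% of all genes. These were Cdt1 and Cdc25a, the phosphatase that activates the cyclin-dependent kinases. Every EXO library was above every NORMAL library in 5 members (Cdt1, Rfc4, Pold1, Ccne1 and Cdc25a), against 4.58% of the genes tested. Leaving out 1 library lowered this median the most without EXO3, to 0.15, and next without NORMAL2, to 0.26.

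Among the licensing genes, all 10 were higher in BLM than in NORMAL (median log2 change 0.69), and none passed the test. Mcm7, a subunit of the Mcm ring, measured 7.07, 3.93 and 12.8 FPKM in NORMAL, 24.4, 8.88 and 31.5 FPKM in BLM and 11.2, 11.8 and 14.9 FPKM in EXO. BLM1 and BLM3 were far above the rest and BLM2 lay within the NORMAL range, so the groups overlapped. The difference between BLM and NORMAL was 1.30 (SE 0.52) on the log2 scale, with an adjusted p of 0.65 in limma. Ap4m1 on the opposite strand covers 7.25% of the exon bases of Mcm7 and reached 21.4 FPKM. Mcm5, another subunit, was at 3.86, 1.78 and 4.29 FPKM in NORMAL, 10.2, 4.04 and 17.0 FPKM in BLM and 3.21, 4.01 and 11.2 FPKM in EXO. NORMAL3 was the single NORMAL library above BLM2, and the difference was 1.28 (SE 0.56).

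The other 4 subunits differed less between the groups. Values of Mcm2 were 3.55, 1.88 and 3.12 FPKM in NORMAL, 7.89, 2.49 and 9.45 FPKM in BLM and 2.9, 3.32 and 6.58 FPKM in EXO. Mcm3 stood at 3.91, 1.73 and 6.03 FPKM in NORMAL, 6.1, 3.2 and 11.7 FPKM in BLM and 3.57, 3.36 and 7.71 FPKM in EXO. For Mcm4 the libraries gave 4.93, 2.8 and 5.8 FPKM in NORMAL, 10.1, 3.64 and 11.8 FPKM in BLM and 4.39, 6.21 and 10.8 FPKM in EXO. In each of these 3 genes BLM2 was below NORMAL1, and the intervals of the change between BLM and NORMAL all held 0 (-0.20 to 1.93 for Mcm2, -0.48 to 1.82 for Mcm3 and -0.37 to 1.78 for Mcm4). Mcm6 differed from its partners in that its highest library was EXO3. It measured 5.38, 3.39 and 11.6 FPKM in NORMAL, 7.3, 4.12 and 14.0 FPKM in BLM and 6.16, 7.78 and 19.4 FPKM in EXO, and its changes were 0.29 (SE 0.57) in BLM against NORMAL and 0.34 (SE 0.57) in EXO against BLM. Although the 6 subunits form a ring in equal numbers, the highest of them exceeded the lowest by 1.99 to 4.11 times within a library. Mcm7 was the highest in all libraries other than EXO3.

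Of the genes that load the ring, Orc1, Cdc6 and Cdt1 had lower means than any Mcm subunit from Mcm2 to Mcm7 and Orc6 did not. Orc1, the largest subunit of the origin recognition complex, measured 0.21, 0.08 and 0.36 FPKM in NORMAL, 1.5, 0.15 and 1.42 FPKM in BLM and 0.05, 0.29 and 0.61 FPKM in EXO. It passed 1 FPKM only in BLM1 and BLM3, and so did Cdc6, which was 0.293 ± 0.095 FPKM in NORMAL, 1.07 ± 0.782 FPKM in BLM and 0.4 ± 0.477 FPKM in EXO (mean ± SD, n = 3). Cdt1, which brings the Mcm ring to the origin, was 1.64 ± 0.309 FPKM in NORMAL, 3.61 ± 1.23 FPKM in BLM and 3.51 ± 0.497 FPKM in EXO. All BLM and all EXO libraries were above all NORMAL libraries in Cdt1, and its change between EXO and BLM was -0.0027 (SE 0.35). Orc6 was 4.88 ± 2.07 FPKM in NORMAL, 7.18 ± 2.04 FPKM in BLM and 6.41 ± 2.56 FPKM in EXO, with overlapping groups.

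The 6 genes of helicase activation differed widely, with a median log2 change of 0.80 after bleomycin. Gins1, a subunit of the GINS complex, measured 3.28, 2.78 and 4.25 FPKM in NORMAL, 19.9, 3.57 and 14.7 FPKM in BLM and 3.5, 4.46 and 6.23 FPKM in EXO. BLM1 and BLM3 were high and BLM2 lay within the NORMAL range, and the difference was 1.38 (SE 0.53) with an adjusted p of 0.643 in limma. Gins4, of the same complex, had group means close to each other, at 15.1, 10.4 and 17.5 FPKM in NORMAL, 18.8, 8.92 and 21.3 FPKM in BLM and 17.5, 11.7 and 17.7 FPKM in EXO. Its difference was 0.12 (SE 0.42), with an interval of -0.80 to 1.04. Gins2 gave 7.72, 3.86 and 11.1 FPKM in NORMAL, 16.6, 7.98 and 14.6 FPKM in BLM and 11.1, 10.5 and 14.0 FPKM in EXO, and in Gins3 the values were 1.35, 0.41 and 2.16 FPKM in NORMAL, 4.35, 0.92 and 3.97 FPKM in BLM and 1.01, 0.96 and 1.64 FPKM in EXO. In both of these genes BLM2 lay within the NORMAL range. Gins3 was the lowest of the 4 subunits in every library and Gins4 the highest in all but BLM1. The exons of Gins2 are overlapped over 67.3% of their length by Gse1 on the opposite strand, and the strand setting of the quantification is not given, so its value is uncertain.

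Mcm10, which helps to start unwinding, was among the least abundant members. It was 0.147 ± 0.124 FPKM in NORMAL, 1.61 ± 0.847 FPKM in BLM and 0.43 ± 0.279 FPKM in EXO, and all BLM libraries were above all NORMAL libraries, with BLM2 at 0.67 FPKM and the highest NORMAL library at 0.29 FPKM. Cdc45, a component of the active helicase, was 0.937 ± 0.611 FPKM in NORMAL, 2.49 ± 1.39 FPKM in BLM and 1.59 ± 1.12 FPKM in EXO.

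All 5 polymerase genes had higher means in BLM, where their median log2 change was 1.11. Pole, the catalytic subunit of the leading-strand polymerase, measured 0.62, 0.24 and 0.92 FPKM in NORMAL, 3.02, 1.44 and 3.38 FPKM in BLM and 0.82, 0.73 and 1.61 FPKM in EXO. Every BLM library was above every NORMAL library, with a difference of 1.16 (SE 0.35) and an adjusted p of 0.463 in limma. Pold1, its counterpart on the lagging strand, was at 3.3, 2.35 and 3.4 FPKM in NORMAL, 10.2, 4.3 and 9.7 FPKM in BLM and 3.72, 3.7 and 5.74 FPKM in EXO. The 3 groups were in part separate in Pold1, since all BLM and all EXO libraries were above all NORMAL libraries. Its difference between BLM and NORMAL was 1.11 (SE 0.40). Prim1, the catalytic subunit of primase, was 3.15 ± 2.27 FPKM in NORMAL, 8.3 ± 3.54 FPKM in BLM and 6.67 ± 3.72 FPKM in EXO, with EXO3 above BLM3. Pole2 was 2.14 ± 1.88 FPKM in NORMAL, 4.07 ± 2.77 FPKM in BLM and 3.68 ± 2.00 FPKM in EXO, and Pola1, which extends the primers, was 0.48 ± 0.123 FPKM in NORMAL, 1.14 ± 0.445 FPKM in BLM and 0.773 ± 0.194 FPKM in EXO.

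Of the clamp and its loaders, Chtf18 stood apart. It is the large subunit of an alternative clamp loader that acts in sister chromatid cohesion, and it measured 0.52, 0.27 and 0.78 FPKM in NORMAL, 5.55, 2.97 and 4.45 FPKM in BLM and 1.24, 0.24 and 1.19 FPKM in EXO. Every BLM library was above every other library, the closest values being 2.97 FPKM in BLM2 and 1.24 FPKM in EXO1. Chtf18 would not have passed the filter without the BLM libraries, so these helped to select it. The difference between BLM and NORMAL was 1.79 (SE 0.36), with an adjusted p of 0.176 in limma and 0.0322 with the block, so Chtf18 passed the test with the block and not without it on the values as deposited. Without the block it was called after quantile normalization and median-ratio scaling. Between EXO and BLM it was -1.51 (SE 0.36), with an adjusted p of 0.296, and 0.0659 with the block. Gng13 on the opposite strand covers 7.53% of its exon bases.

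Pcna, the clamp that holds the polymerases on DNA, was the most abundant member at 17.0, 16.8 and 22.8 FPKM in NORMAL, 40.7, 18.1 and 53.5 FPKM in BLM and 17.1, 27.1 and 39.2 FPKM in EXO. BLM2 was within the NORMAL range and EXO3 close to BLM1, and the difference between BLM and NORMAL was 0.84 (SE 0.47), with an interval of -0.20 to 1.87. A processed copy, Pcna-ps2, reached 3.94 FPKM, and how reads were shared between the copies is not known. The loader subunits followed at lower levels. Rfc3 was 3.18 ± 1.13 FPKM in NORMAL, 5.61 ± 3.52 FPKM in BLM and 4.43 ± 1.74 FPKM in EXO. For Rfc4 the means were 4.94 ± 0.699 FPKM in NORMAL, 10.4 ± 5.79 FPKM in BLM and 6.57 ± 1.15 FPKM in EXO. Rfc5 varied most among the EXO libraries, from 0.75 FPKM in EXO1 to 5.96 FPKM in EXO3. Eif4a2 on the opposite strand covers 12.7% of the exon bases of Rfc4 and reached 36.9 FPKM. For Rfc5 it is Wsb2, which covers 10.7% and reached 20.1 FPKM.

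The genes that trim and seal the lagging strand both had higher means in BLM. Lig1, the ligase, measured 2.95, 1.55 and 5.91 FPKM in NORMAL, 13.6, 3.99 and 18.4 FPKM in BLM and 3.85, 4.65 and 8.81 FPKM in EXO. BLM1 and BLM3 were high and BLM2 fell below NORMAL3, and the difference was 1.45 (SE 0.57) with an adjusted p of 0.644 in limma. Fen1, the flap nuclease, was 5.63 ± 0.503 FPKM in NORMAL, 13.0 ± 6.43 FPKM in BLM and 6.56 ± 3.27 FPKM in EXO. Of its exon bases, 78.8% lie opposite the antisense gene Gm10143, which stayed at or below 0.33 FPKM. Tmem258 on the opposite strand covers 5.37% of them and reached 48.2 FPKM.

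Nucleotide supply had the largest median of the roles, 1.50 after bleomycin, and held both large and small changes. Tk1, which salvages thymidine, measured 2.04, 1.5 and 2.01 FPKM in NORMAL, 11.7, 4.46 and 12.2 FPKM in BLM and 2.18, 2.00 and 4.85 FPKM in EXO. All BLM libraries were above all NORMAL libraries, and EXO3 was just above BLM2. The difference was 1.77 (SE 0.45) in BLM against NORMAL, with an adjusted p of 0.366 in limma, and -1.34 (SE 0.45) in EXO against BLM. In the former comparison Tk1 was called after quantile normalization and median-ratio scaling. Rrm2, the small subunit of ribonucleotide reductase, which is made in S phase, was at 1.48, 1.24 and 8.64 FPKM in NORMAL, 14.4, 4.62 and 21.9 FPKM in BLM and 1.74, 1.64 and 6.15 FPKM in EXO. NORMAL3 was above BLM2, and the difference was 1.73 (SE 0.69) in BLM against NORMAL and -1.75 (SE 0.69) in EXO against BLM.

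Rrm1, the large subunit of the same enzyme, had 1 of the smallest differences. It measured 2.66, 1.63 and 2.42 FPKM in NORMAL, 2.81, 1.25 and 5.5 FPKM in BLM and 2.59, 2.53 and 5.74 FPKM in EXO, and its highest library was EXO3. Its difference between BLM and NORMAL was 0.25 (SE 0.46), with an interval of -0.75 to 1.26. Tyms, which makes thymidylate, was 1.6 ± 0.85 FPKM in NORMAL, 6.11 ± 4.17 FPKM in BLM and 2.11 ± 1.03 FPKM in EXO, with BLM2 below NORMAL3.

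The chromatin genes included the largest change of all members. Uhrf1, which binds newly copied DNA with methyl groups on a single strand and brings in the maintenance methyltransferase, measured 3.52, 1.85 and 4.32 FPKM in NORMAL, 23.5, 8.93 and 28.0 FPKM in BLM and 3.83, 1.52 and 10.1 FPKM in EXO. Every BLM library was above every NORMAL library, whereas EXO3 exceeded BLM2. The difference between BLM and NORMAL was 2.23 (SE 0.59), with an adjusted p of 0.386 in limma and 0.0322 with the block, and the blocked fit of the deposited values was the only setting tried in which Uhrf1 was called. In EXO against BLM the difference was -1.90 (SE 0.59), with an adjusted p of 0.483, and 0.0659 with the block. The subunits of the histone chaperone CAF-1 were lower in level. Chaf1a was 0.58 ± 0.286 FPKM in NORMAL, 2.43 ± 1.98 FPKM in BLM and 1.39 ± 0.975 FPKM in EXO, though 52.5% of its exon bases lie opposite Ubxn6. Chaf1b was 1.32 ± 0.926 FPKM in NORMAL, 5.09 ± 3.84 FPKM in BLM and 2.19 ± 1.07 FPKM in EXO.

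Genes of S phase entry included both large changes and the smallest of the tested members. E2f2, a transcription factor that activates S phase genes, measured 1.26, 0.84 and 2.24 FPKM in NORMAL, 16.1, 4.62 and 13.1 FPKM in BLM and 3.55, 1.56 and 2.9 FPKM in EXO. Every BLM library was above every other library. The difference between BLM and NORMAL was 2.22 (SE 0.48), with an adjusted p of 0.246 in limma and 0.0322 with the block, so E2f2 passed the test with the block and not without it on the values as deposited. Without the block it was called after quantile normalization, after median-ratio scaling and when mitochondrial genes were left out. In EXO against BLM it was -1.64 (SE 0.48), with an adjusted p of 0.452, and 0.0811 with the block. E2f1, its close relative, was 2.93 ± 0.563 FPKM in NORMAL, 6.48 ± 2.47 FPKM in BLM and 3.9 ± 1.49 FPKM in EXO, with all BLM libraries above all NORMAL libraries.

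The 2 E cyclins, which drive entry into S phase with Cdk2, differed from each other. Ccne1 measured 0.76, 0.38 and 0.64 FPKM in NORMAL, 4.16, 0.58 and 4.97 FPKM in BLM and 0.97, 0.85 and 2.01 FPKM in EXO. BLM1 and BLM3 were high, BLM2 lay within the NORMAL range and all EXO libraries were above all NORMAL libraries, with a difference of 1.20 (SE 0.48) between BLM and NORMAL. Ccne2 was at 0.82, 0.65 and 1.09 FPKM in NORMAL, 2.95, 0.29 and 0.3 FPKM in BLM and 0.94, 1.94 and 1.3 FPKM in EXO. BLM1 held its highest value and BLM2 and BLM3 its lowest, so that the difference was 0.026 (SE 0.44), with an interval of -0.93 to 0.99. Ints8 on the opposite strand covers 17.4% of the exon bases of Ccne2.

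Clspn, an adaptor of the checkpoint that slows replication on damaged DNA, was low, at 0.29, 0.14 and 0.36 FPKM in NORMAL, 2.13, 0.7 and 3.82 FPKM in BLM and 0.33, 0.29 and 1.09 FPKM in EXO. All BLM libraries were above all NORMAL libraries, and EXO3 was above BLM2. The difference between BLM and NORMAL was 1.23 (SE 0.39), with an adjusted p of 0.516 in limma. Cdc25a had its highest values in EXO, with means of 0.567 ± 0.343 FPKM in NORMAL, 1.48 ± 0.822 FPKM in BLM and 2.27 ± 0.951 FPKM in EXO. EXO was above BLM in each of the 3 numbers, and the change between EXO and BLM was 0.41 (SE 0.36), with an adjusted p of 0.857.

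**Figure D3:**
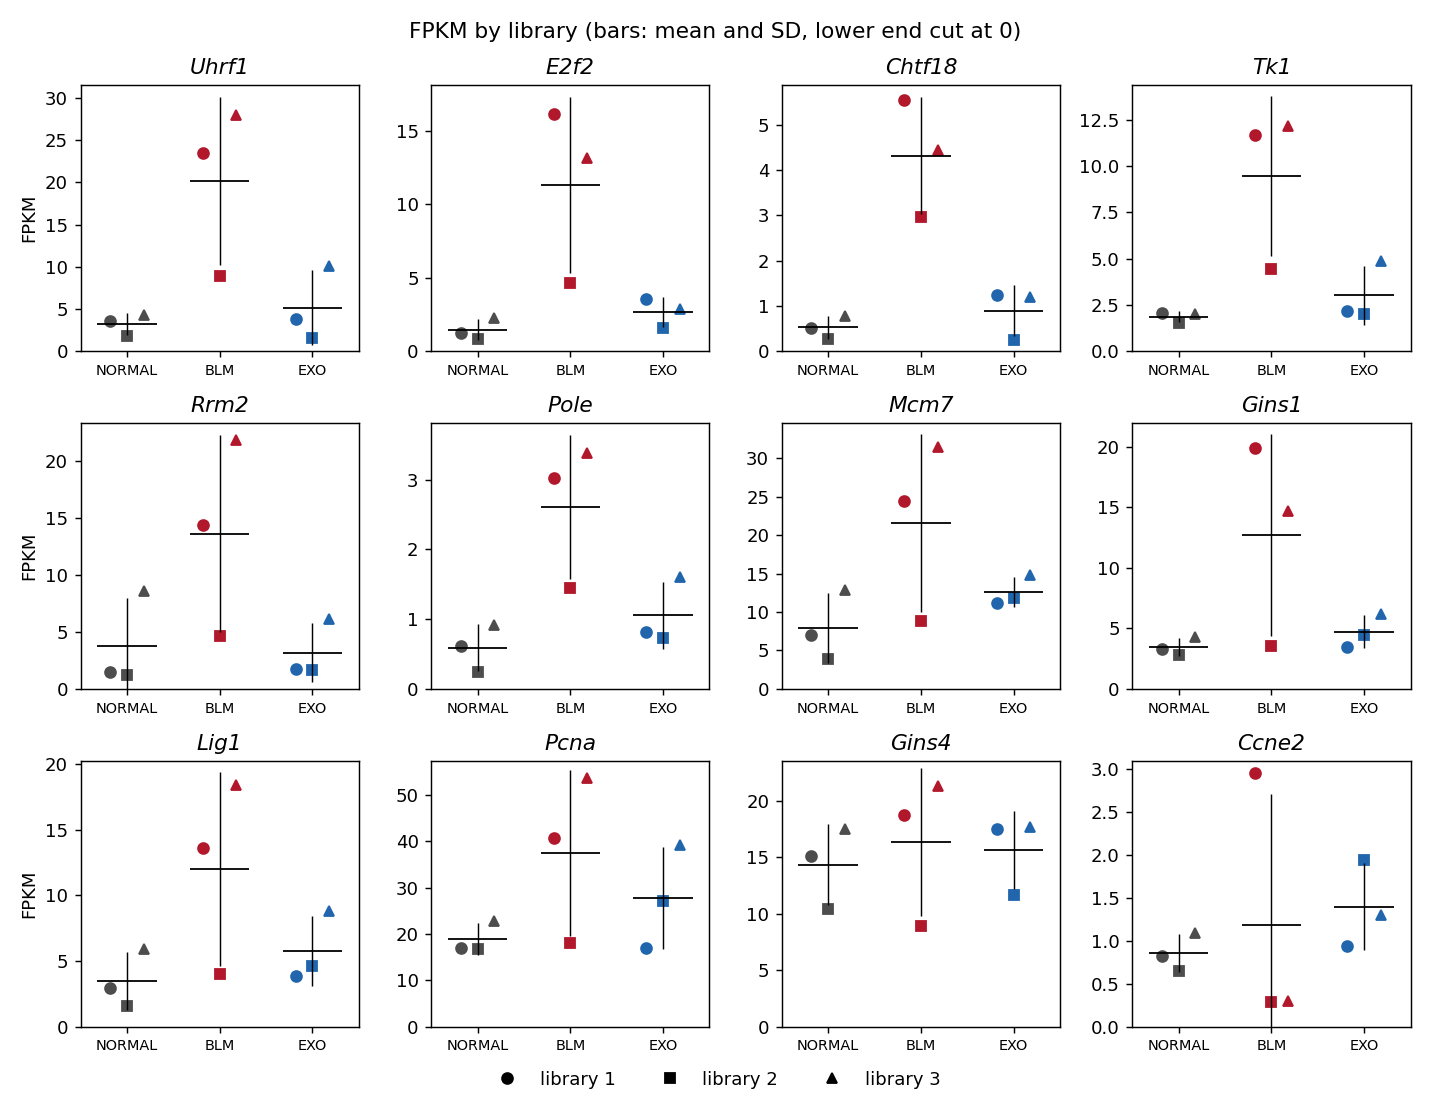
FPKM of 12 of the genes in each library (points, shaped by library number), with the mean and SD of each group of 3 (black bars, cut at 0). In Uhrf1, E2f2, Chtf18 and Tk1 all BLM points lie above all NORMAL points, in Gins1 and Lig1 BLM2 (square) lies near NORMAL, and the 3 group means of Gins4 lie close together.

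Other replication genes and the genes around them were described from lists chosen by function. Of all genes in BLM against NORMAL, 3.28% were higher at an unadjusted p below 0.05 in limma, and 6.29% with the block. With the block 0.407% were called higher. Of 40 replication factors outside the 41 genes, 37 were tested, and 0 were called in BLM against NORMAL in limma without or with the block (7 and 19 at an unadjusted p below 0.05, all higher). Their median log2 change was 0.59, and those with the smallest p were Wdhd1, a factor that couples the helicase to the polymerases (1.70 (SE 0.42)), and Dbf4, the activator of the kinase that fires origins (1.22 (SE 0.39)). Other genes of nucleotide supply (18 tested, median 0.41) and of chromatin assembly (12 tested, median 0.62) also had 0 calls in limma (2 and 2 at an unadjusted p below 0.05), with Dut (1.21 (SE 0.53)) in the former and Hells (1.13 (SE 0.37)) and Hmgb2 (1.56 (SE 0.60)) in the latter among those with the smallest p. Of 27 tested regulators of the G1/S step (median 0.53), 0 were called in limma (7 at an unadjusted p below 0.05) and 2 with the block. These were Mycn, a transcription factor of growing progenitors, at 0.91, 0.44 and 0.78 FPKM in NORMAL, 18.2, 5.28 and 23.0 FPKM in BLM and 0.74, 0.59 and 0.96 FPKM in EXO, and Ccna2, the cyclin of S phase, at 1.65, 1.51 and 3.24 FPKM in NORMAL, 17.3, 5.97 and 17.5 FPKM in BLM and 2.2, 2.89 and 6.09 FPKM in EXO. Mycn gave 3.07 (SE 0.48), with an adjusted p of 0.0884 in limma and 0.0299 with the block. Mycn was the only gene of these lists, apart from the hair genes, called in EXO against BLM with the block, at -3.02 (SE 0.48) and an adjusted p of 0.0296. It reached 1 FPKM in the BLM libraries alone, so its BLM values selected it for the test. Dbf4 and Hells would not have passed the filter without the BLM libraries either.

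Mitosis genes had a larger median change than the replication genes, although the difference between the lists was not tested. The 24 of them summed to 60.8, 40.7 and 67.0 FPKM in NORMAL, 254, 94.0 and 323 FPKM in BLM and 73.7, 53.5 and 120.0 FPKM in EXO. All BLM libraries were above all NORMAL libraries in this sum, and EXO3 was above BLM2. Of 23 tested, 22 were higher in BLM than in NORMAL, against 47.3% of all genes, and the median log2 change was 1.68. Several of the 23 would not have passed the filter without the BLM libraries, so their BLM values helped to select them. In limma 0 were called, and 21 were higher at an unadjusted p below 0.05, against 3.28% of all genes. With the block 9 were called, against 0.407% of all genes called higher. In EXO against BLM the median was -1.29, with 22 lower, where 68.8% of all genes were higher. In limma 0 were called without or with the block, against 0.014% and 0.0772% of all genes. At an unadjusted p below 0.05, 16 were lower, against 2.52% of all genes, and 21 with the block, against 4.17%. Mki67, a marker of cycling cells, measured 1.99, 0.99 and 2.94 FPKM in NORMAL, 32.5, 8.4 and 21.0 FPKM in BLM and 2.58, 2.44 and 5.81 FPKM in EXO. Top2a, which untangles copied chromosomes, was at 1.16, 0.59 and 2.5 FPKM in NORMAL, 12.2, 3.39 and 17.5 FPKM in BLM and 1.27, 1.75 and 4.99 FPKM in EXO, and Cdk1, the kinase of mitosis, at 0.72, 0.6 and 1.25 FPKM in NORMAL, 15.9, 5.25 and 16.8 FPKM in BLM and 0.92, 1.48 and 3.51 FPKM in EXO. All 3 were called with the block, with adjusted p of 0.0299, 0.0478 and 0.0299 in limma. These 3 would have passed the filter without the BLM libraries.

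Markers of the growing hair follicle also had higher means in BLM than in NORMAL and EXO. The 15 hair matrix genes measured summed to 12.8, 6.62 and 289 FPKM in NORMAL, 925, 203 and 1108 FPKM in BLM and 29.6, 19.8 and 25.4 FPKM in EXO. All 15 were higher in BLM than in NORMAL (median log2 change 2.79), against 47.3% of all genes. All 15 were lower in EXO than in BLM (median -3.39), where 68.8% of all genes were higher. Shh, the signal made by the growing follicle, was called in both comparisons without the block. It reached 1 FPKM in the BLM libraries alone, so its BLM values selected it for the test. It measured 0.15, 0 and 0.22 FPKM in NORMAL, 14.3, 5.74 and 17.2 FPKM in BLM and 0.29, 0 and 0.26 FPKM in EXO, with 3.46 (SE 0.40) and an adjusted p of 0.029 in BLM against NORMAL, and -3.39 (SE 0.40) and 0.0268 in EXO against BLM. Wnt10b, a ligand of the same tissue, was called with the block in BLM against NORMAL (2.64 (SE 0.52), adjusted p 0.0345). Melanocyte markers summed to 0.88 to 4.55 FPKM in NORMAL, 16.2 to 176 FPKM in BLM and 2.44 to 6.09 FPKM in EXO. The 5 basal keratinocyte markers summed to 1003 to 8160 FPKM in NORMAL, 1003 to 3850 FPKM in BLM and 6423 to 10853 FPKM in EXO. In BLM against NORMAL 2 were higher and 3 lower (median -0.19), and in EXO against BLM all 5 were higher (median 1.51). In limma 0 of them were called in either comparison. The part of the hair follicle or of the basal epidermis in the replication values was not tested. BLM3 and BLM1 held the highest sums of both hair matrix genes and replication genes, and NORMAL2 held the lowest of both. The order of the 2 sums differed among other libraries. NORMAL3 had 289 FPKM of hair matrix genes and 182 FPKM of replication genes, whereas EXO3 had 25.4 FPKM and 285 FPKM.

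**Figure D4:**
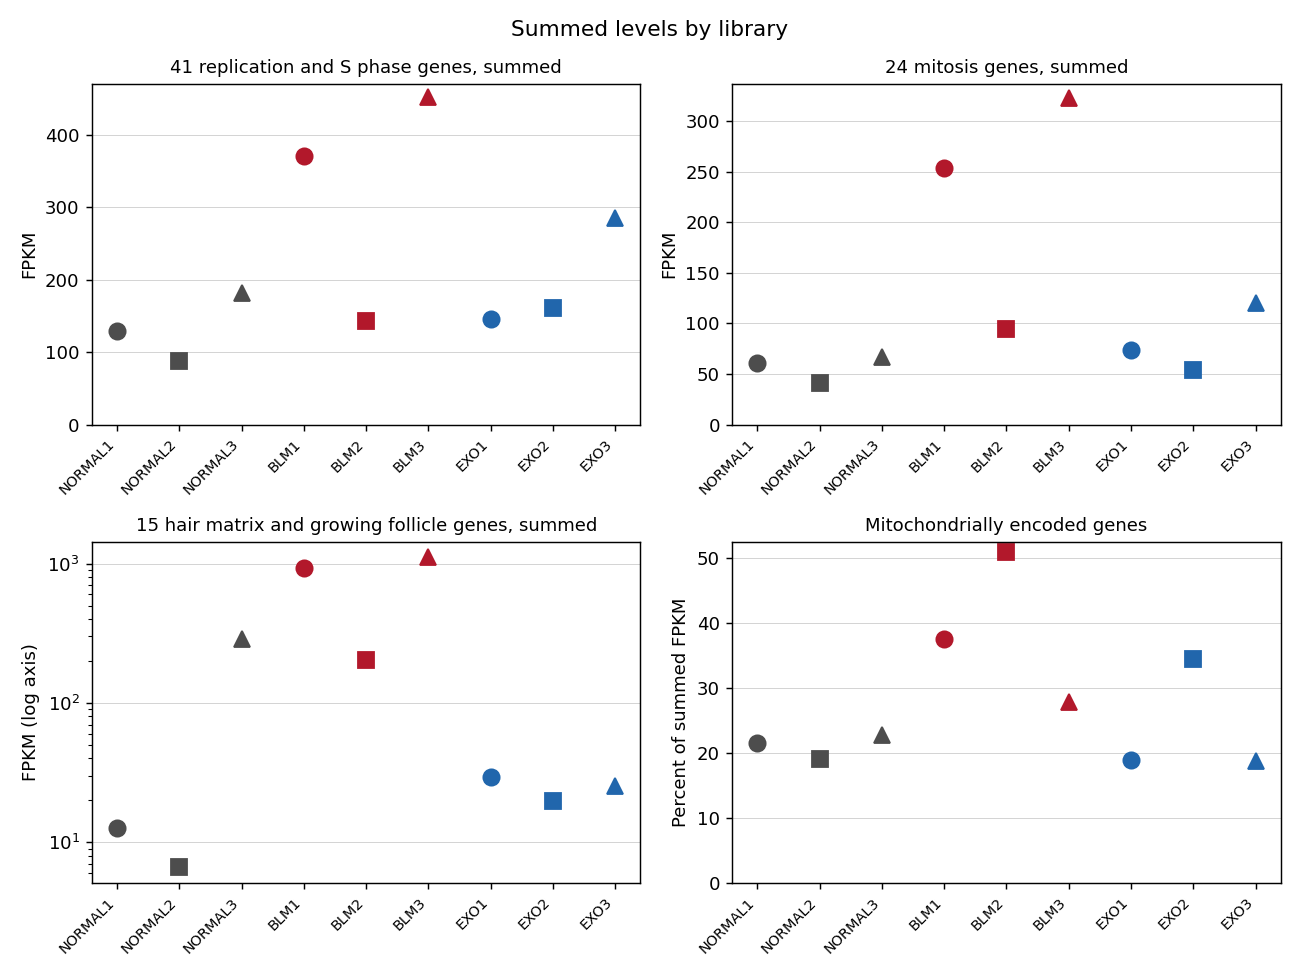
Summed FPKM of the 41 replication genes, of 24 mitosis genes and of 15 hair matrix genes (log axis), and the share of summed FPKM from mitochondrially encoded genes, in each library (1 point a library, shaped by number and coloured by group). BLM1 and BLM3 are highest in all 3 sums, EXO3 follows them in replication genes but is low in hair matrix genes, and BLM2 has the highest mitochondrial share, 50.9%.

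The counts depended on how the libraries were scaled, and the mitochondrial share moves with the groups. In 1 scaling, mitochondrially encoded genes were left out with 7 pseudogene copies of them in the nuclear genome. The genes left out held 31.5 to 36.7% of the summed FPKM in NORMAL, 44.1 to 80.8% in BLM and 30.6 to 54.7% in EXO. Every BLM library was then above every NORMAL library in 28 of the 37 tested members, but also in 11.3% of all genes. The median of all genes in BLM against NORMAL moved to 0.44. With the median of the ratios as scale the count of members was again 28, against 8.07% of all genes. With each library set to the same total it was 5, against 1.05%, while the median of all genes moved to -0.25. The median of the 41 members lay above that of all genes by 0.91 as deposited, and by 1.15, 0.91 and 1.05 under these scalings. In EXO against BLM the same difference of medians was -0.75 as deposited, and -0.89, -0.67 and -0.76. BLM2 had the largest mitochondrial share and was the lowest BLM library in 39 members. Without BLM2 the medians of the members were 1.35 in BLM against NORMAL and -0.92 in EXO against BLM, and without BLM3 they were 0.64 and -0.23.

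**Figure D5:**
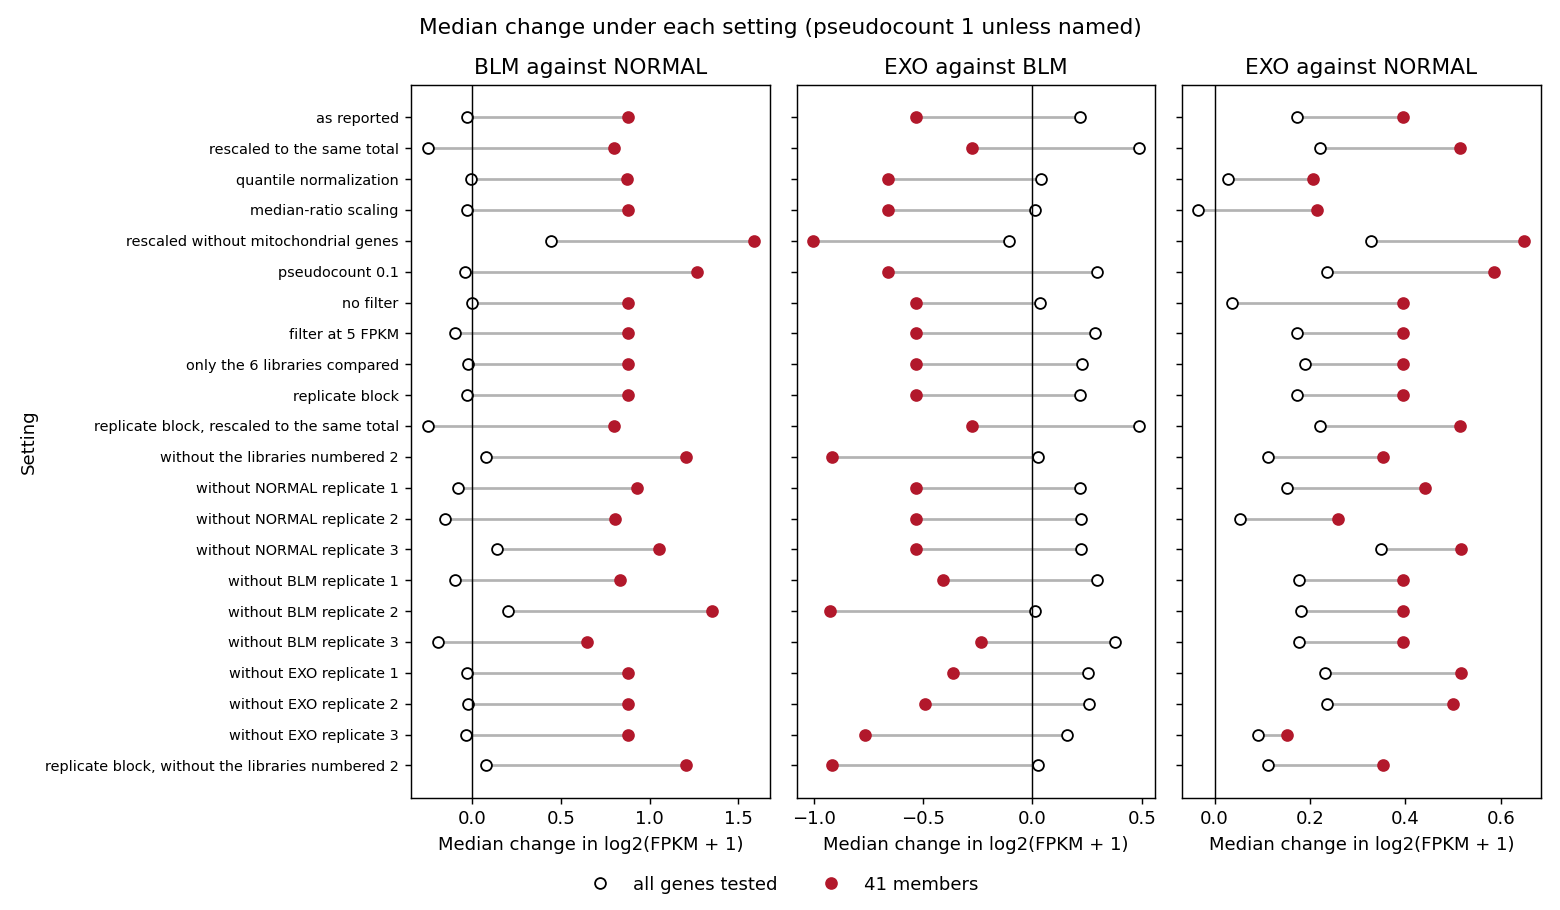
Median change in log2(FPKM + 1) of the 41 genes (filled points) and of all genes tested (open points) under each way of processing the values (rows), in the 3 comparisons. The filled point lies to the right of the open point in every row of BLM against NORMAL and to the left in every row of EXO against BLM, and the gap in EXO against NORMAL is smallest without EXO replicate 3.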

How the data were processed

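RNA-seq of poly(A) RNA from mouse skin (strand-specific libraries) gave 3 libraries in each of 3 groups. The deposited table holds FPKM that the authors computed for 55382 genes. The submitters' processing notes name cutadapt, HISAT2 2.0.4, StringTie 1.3.4d and mm9. Neither the annotation release nor the strand setting is given in those sources. Since FPKM is relative to a library's own total, a larger mitochondrial share lowers all other values. The table holds no counts. The steps between low values of processed pseudogenes gave roughly 14.0 to 29.4 M fragments a library, uncertain by a factor of 2 in BLM2 and EXO2.

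Genes with 1 FPKM in at least 3 libraries (14254) were tested on the log2(FPKM + 1) scale. The 9 libraries were fitted together in limma 3.58.1 under R 4.3.3 (variance trend allowed), with Benjamini-Hochberg adjustment over the genes tested and a threshold of 0.05. Group medians over the members use all 41. The library number was tried as a block. The labels state no pairing or batch. Deviations from the group means correlated at 0.17 to 0.68 between the 9 pairs with the same number. Between the 18 other pairs they correlated at -0.55 to 0.20, so the ranges overlapped. Deviations within a group cancel out, which builds in a part of this contrast. They also come from the values that were tested, so they cannot show that the block is right. Titles without a number were taken as number 3. Other scalings, filters, pseudocounts and sets of libraries were tried. The script was tested on simulated data. Exon overlaps and 99.56% of the gene identifiers were matched to GENCODE M21 (GRCm38). Promoter windows came from RefSeq by symbol, in GRCm38.p6 and not in the mm9 of the quantification. Some genes of the other lists were not analysed or are not reported here.

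Named with full values were members called in any fit, the 12 with the smallest p and the 3 with the smallest change in BLM against NORMAL, the most and least abundant member and all Mcm and GINS subunits. Of other lists, genes called without the block, some with the smallest p or called with the block, and Mki67, Top2a and Cdk1 are named. The other mitosis genes and the 3 melanocyte genes called with the block in BLM against NORMAL are not named. The members and lists were chosen with earlier results of these data known.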

Additional observations from a re-analysis of the deposited data

How the results depend on the processing

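With other settings the calls moved, while the median of the 41 members stayed positive in BLM against NORMAL, negative in EXO against BLM and positive in EXO against NORMAL under every setting tried. In BLM against NORMAL the count of called members was 3 with quantile normalization and with median-ratio scaling (Chtf18, E2f2 and Tk1 in both), 1 after rescaling without mitochondrial genes (E2f2), 3 with the replicate block (Chtf18, E2f2 and Uhrf1) and 0 elsewhere, and the median of the members moved to 1.59 after rescaling without mitochondrial genes. The replicate block changed no other call of a member, and with each library also rescaled to the same total, or without the libraries numbered 2, it called 0. That last fit was added after the data were seen. Over all genes tested, the counts called, which were 2 in BLM against NORMAL, 2 in EXO against BLM and 0 in EXO against NORMAL, were 56 and 30 in the former pair with quantile normalization, 74 and 35 with median-ratio scaling, 55 and 17 after rescaling without mitochondrial genes, and 0 and 1 after rescaling to the same total. With the replicate block they were 60, 11 and 3, and with the block and the same total 3, 6 and 2. They were 0, 0 and 1 with a pseudocount of 0.1, 0 and 0 in the former pair with no filter, with a filter at 5 FPKM and without the libraries numbered 2 (with or without the block), and 0 and 97 with only the 6 libraries compared. Leaving out each library gave 0 to 131 in BLM against NORMAL and 0 to 87 in EXO against BLM, both highest without NORMAL3. The cause of these moves was not tested. Uncalled log2 changes near 0 turned sign in some settings. In BLM against NORMAL, at the same total (with or without the block) they were -0.19 for Ccne2 and -0.17 for Gins4, with quantile normalization they were -0.072 for Ccne2 and with a pseudocount of 0.1 they were -0.26 for Ccne2. In EXO against BLM, at the same total (with or without the block) they were 0.13 for Mcm4 and 0.25 for Gins2, with quantile normalization they were -0.31 for Gins4, with median-ratio scaling they were -0.27 for Gins4, without mitochondrial genes they were -0.41 for Gins4, -0.095 for Rrm1 and -0.038 for Mcm6 and without the libraries numbered 2 (with or without the block) they were -0.10 for Ccne2, -0.17 for Gins4 and -0.017 for Rrm1. In EXO against NORMAL, at the same total (with or without the block) they were 0.035 for Rrm2 and 0.034 for Gins3, with quantile normalization they were -0.0073 for Gins4, with median-ratio scaling they were -0.14 for Gins4, without mitochondrial genes they were 0.15 for Rrm2 and 0.14 for Gins3 and with a pseudocount of 0.1 they were 0.038 for Rrm2 and 0.10 for Gins3. Leaving out each library gave, in BLM against NORMAL, -0.51 to 0.30 for Ccne2, -0.10 to 0.48 for Gins4, -0.12 to 0.70 for Mcm6 and -0.13 to 0.63 for Rrm1. Leaving out each library gave, in EXO against BLM, -0.37 to 0.11 for Gins2, -0.36 to 0.23 for Gins4, -0.18 to 0.59 for Rrm1, -0.12 to 0.74 for Mcm6, -0.77 to 0.031 for Mcm3 and -0.63 to 0.11 for Mcm4. Leaving out each library gave, in EXO against NORMAL, -0.32 to 0.26 for Gins3, -0.076 to 0.31 for Gins4, -0.075 to 0.61 for Mcm3, -0.49 to 0.66 for Rrm2 and -0.23 to 0.84 for Uhrf1. FPKM carries no counts, so counting error at low values is not known.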
